A study of Danio rerio with 57 samples.

Results

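Rotenone at 25 nM was sampled at 96 hours post fertilization (hpf) in both exposure scenarios of the study, and these libraries with their DMSO controls were chosen by the labels for substance, concentration, exposure start and age. The set held 13 of the 57 libraries of the series. Every library was RNA of whole embryos of wild-type zebrafish (strain OBI/WIK, generation F3) pooled in groups of 20. The early exposure scenario compared 4 libraries exposed to rotenone from the labelled start of 0 hpf (T6, T8, T9 and T10) with 3 DMSO libraries of the same start (T12, T13 and T11). The late exposure scenario compared 3 libraries exposed to rotenone from 24 hpf (T71, T72 and T74) with 3 DMSO libraries of that start (T76, T77 and T78). Values per library are given in these orders. The labelled exposure therefore lasted 96 h in the early and 72 h in the late scenario, although the protocol text of the same records gives 2 hpf as the early start. A further early DMSO library with 13 counts, T14, was left out. Whole embryos mix all tissues, so fewer cells of a type and less RNA per cell cannot be told apart, and the pools are replicates of the exposure vials rather than of single animals.

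Rotenone is a plant-derived insecticide that binds complex I of the mitochondrial respiratory chain at the ubiquinone site and blocks the transfer of electrons from NADH. Complex I is built from nuclear subunits and from subunits encoded on the mitochondrial genome. In cells and animals its inhibition is known to lower ATP supply, to raise reactive oxygen species and to injure dopamine neurons, for which rotenone is used to model Parkinson disease.

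Total counts ranged from 20609990 (T8) to 86897183 (T13) over the 13 libraries, with 75.3% to 77.9% of reads counted and 25461 to 26964 genes with counts. The group median SD of log2 CPM (counts per 1000000 counts of the scaled library) was 0.14 in early rotenone and 0.13 in early DMSO libraries, against 0.10 in both late groups. Neuron (elavl3, 262 to 346 CPM), rod (rho, 864 to 1180 CPM), heart (myl7, 17.7 to 27.1 CPM), lens (CRYAA, 12.2 to 28.5 CPM), vessel (kdrl, 32.0 to 38.4 CPM) and liver (fabp10a, 71.5 to 128 CPM) markers were present in every library. Library T8 stood apart by its high values. It held 37 genes whose log2 level was over 1 above every other 96 hpf library, against 0 to 2 such genes in each of the other 12 libraries. Outside this set, early sorafenib library T1 held 17. Genes over 1 below every other 96 hpf library numbered 29 in T8 and 0 to 16 in the other 12, with 16 in T10. The median deviation of T8 from its group was 0.123 on the log2 scale, within the range of the other libraries.

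The first question was whether 25 nM rotenone left any change in the transcriptome at 96 hpf. No gene was called in either scenario by edgeR's quasi-likelihood test at an adjusted p under 0.05. In the early scenario 0 of 24246 genes were called (0% of genes tested), 306 had an unadjusted p under 0.05, and the lowest adjusted p was 0.27. In the late scenario 0 of 24246 genes were called (0%), 223 had an unadjusted p under 0.05, and the lowest adjusted p was 1. DESeq2 called 7 genes in the early (0.0289% of genes tested) and 0 in the late scenario, and limma voom called 0 in each. The common change over both scenarios, taken as the mean of both differences, gave 0 called genes with 235 at an unadjusted p under 0.05 in edgeR, and 0 in DESeq2 and in limma voom. A share of 5% of the genes tested is 1212. The main fit lies far under that number in both scenarios, so its 0 calls do not show that no gene changed. The count at an unadjusted p under 0.05 depended on the libraries fitted together. It was 1172 early (5.15%) and 710 late (3.12%) of 22768 genes when only the 4 groups entered the fit. That fit called 1 gene early and 0 late. In fits of only the 2 groups compared the order was reversed. These gave 717 of 22196 genes early (3.23%) and 1185 of 22500 late (5.27%), with 0 calls in each. Leaving out only T16, T37 and T49, libraries of other groups, gave 859 early (3.55%) and 557 late (2.3%) of 24225 genes, with 0 calls in each.

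The 95% intervals of the log2 fold changes gave the sizes of change that the test bounded, with the spread taken from all 55 libraries. Of 19496 genes with a mean of at least 1 CPM over the 13 libraries, 19266 (98.8%) had an interval within 1 on the log2 scale in the early and 19083 (97.9%) in the late scenario. Intervals within 0.5 were reached by 13675 of these genes early and 13373 late, and by 17627 (90.4%) for the common change. When only the 4 groups were fitted the intervals were narrower, and 85.9% of these genes early and 85.1% late had one within 0.5. The median absolute log2 fold change over all genes tested was 0.08 early and 0.07 late.

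Genes of the respiratory chain were described next, because complex I is the target of rotenone. None of 41 nuclear complex I subunits was called in either scenario. Their median log2 fold change was -0.10 early, with 38 of 41 lower in rotenone, and 0.00 late, with 17 of 41 lower. As the base for this and the later lists, 13116 of 24246 genes tested were lower early and 12499 late. NDUFV1, which carries the NADH-binding site, had 225, 227, 239 and 236 CPM in early rotenone libraries, against 237, 242 and 269 CPM in early DMSO libraries. In the late scenario NDUFV1 had 263, 269 and 251 CPM in rotenone libraries, against 258, 267 and 260 CPM in DMSO libraries. The groups overlapped in both scenarios, and the 95% intervals of the NDUFV1 log2 fold change were -0.38 to 0.16 early and -0.29 to 0.285 late. With only the 4 groups fitted the NDUFV1 intervals were -0.198 to 0.00978 early and -0.113 to 0.108 late. NDUFS7, a subunit at the quinone site, also overlapped in both scenarios (log2 fold changes -0.04 early and 0.003 late). Both subunits were chosen by their role. NDUFS1 had the lowest p of the list in both scenarios, but the ID that carries this symbol (ENSDARG00000028546) had at most 0.252 CPM in any of the 13 libraries.

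The lean of the early complex I subunits moved with single libraries. The summed level of the 41 subunits was 3063, 2796, 2685 and 2789 CPM in early rotenone libraries, against 2915, 2833 and 3351 CPM in early DMSO libraries, where T11 was the high one. Without T11 the early median was -0.01, and 24 of 41 subunits were lower in rotenone. Without rotenone library T6, the high one of its group, the median was -0.159, and 39 of 41 were lower. For 47 nuclear subunits of complexes II to V the early median was -0.105 with all libraries, and leaving out single libraries gave -0.147 (without T13) to -0.01 (without T11). For 80 cytosolic ribosomal proteins it was -0.09, with -0.154 (without T13) to -0.004 (without T11). All 13 glycolysis genes matched were lower in early rotenone, at a median of -0.10, with -0.119 (without T12) to -0.05 (without T11). Without T11, 12 of these 13 were lower, and without T8 and T11 together 11 of 13. The median over all genes tested was -0.01 with and without T11. T11 had the largest median deviation from its group among the 13 libraries (0.17 on the log2 scale), and its part in these medians beyond the values given was not tested.

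mRNAs of the mitochondrial genome took shares of counts that overlapped between rotenone and DMSO libraries in both scenarios. The share was 3.97%, 3.61%, 3.37% and 3.55% in early rotenone libraries (mean 3.62% ± 0.25, SD, n = 4), against 3.66%, 3.55% and 3.76% in early DMSO libraries (3.66% ± 0.105, SD, n = 3). An exact two-sided permutation test gave p = 0.80, where 4 against 3 libraries cannot go below 0.0571. In the late scenario the share averaged 3.55% ± 0.11 in rotenone and 3.57% ± 0.01 in DMSO libraries (SD, n = 3 each), with p = 0.90 in the exact test, which cannot go below 0.10. MT-ND1, a complex I subunit beside the quinone site, had 95% intervals of -0.229 to 0.245 early and -0.32 to 0.19 late. MT-ND6 was the member with the lowest p early, at 24.3, 39.1, 16.2 and 13.5 CPM in rotenone libraries, against 11.4, 19.8 and 13.6 CPM in DMSO libraries. The highest value was T8, and the MT-ND6 log2 fold change of 0.62 was 0.27 without it.

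**Figure D1:**
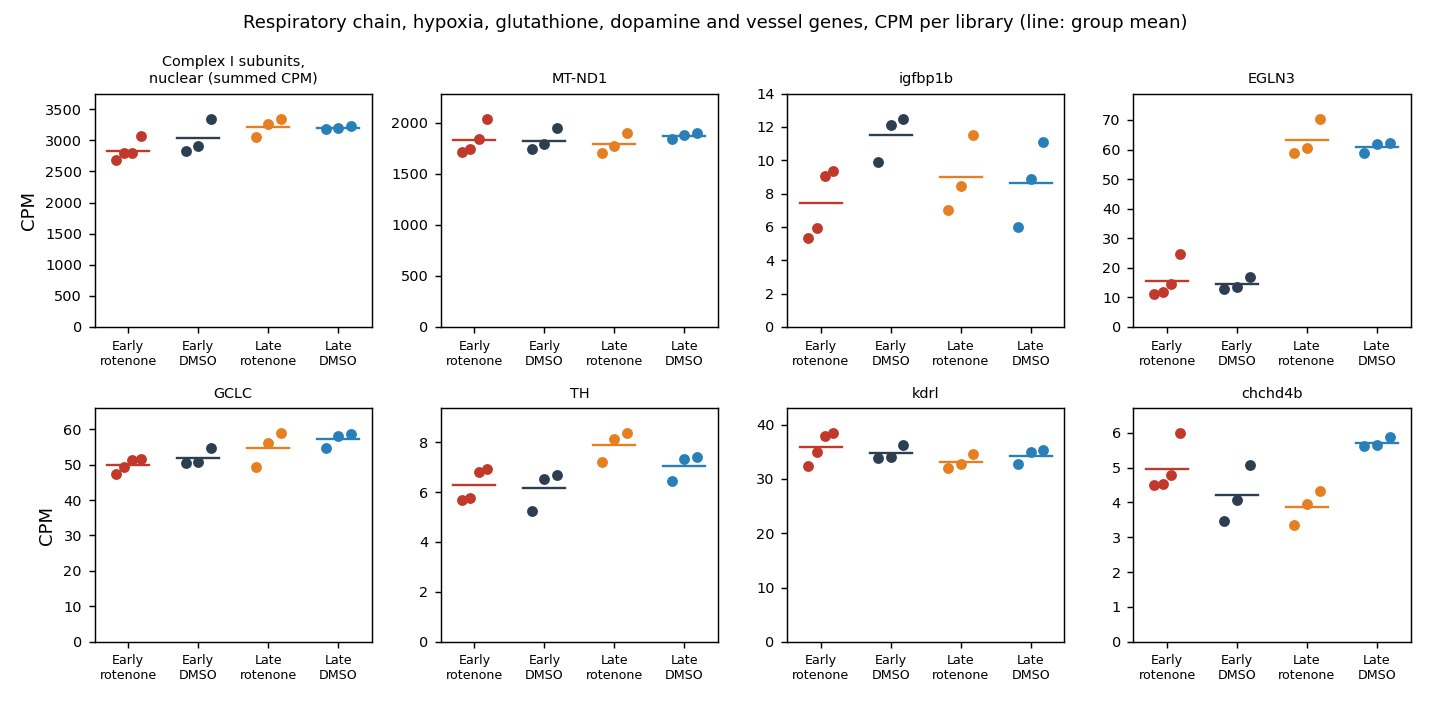
Expression per library (CPM; points are libraries, lines group means) of the summed nuclear complex I subunits and of MT-ND1, igfbp1b, EGLN3, GCLC, TH, kdrl and chchd4b in early rotenone, early DMSO, late rotenone and late DMSO libraries. Groups of each scenario overlap except for igfbp1b in the early and chchd4b in the late panel, and EGLN3 is higher in all late than in all early libraries.

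Genes of the hypoxia response and of mitochondrial stress were not called either. Of 17 hypoxia genes the median log2 fold change was -0.04 early and 0.06 late. Leaving out single libraries gave -0.105 (without T6) to 0.008 (without T8) early and 0.0135 (without T71) to 0.0888 (without T74) late. The lowest p early belonged to igfbp1b, whose product binds insulin-like growth factors and is induced by low oxygen. It had 9.33, 5.96, 5.32 and 9.04 CPM in early rotenone libraries, against 9.92, 12.5 and 12.1 CPM in early DMSO libraries. All 4 rotenone libraries lay below the 3 DMSO libraries (log2 fold change -0.63, SE 0.24, adjusted p = 1), whereas the late libraries overlapped (0.06, SE 0.25). LDHA, the lactate dehydrogenase subunit of anaerobic glycolysis, had log2 fold changes of -0.04 early (95% interval -0.20 to 0.12) and -0.03 late (-0.20 to 0.14). EGLN3, a prolyl hydroxylase and target of hypoxia-inducible factor, averaged 15.6 CPM in early rotenone and 14.4 CPM in early DMSO libraries, and 63.3 CPM in late rotenone and 60.9 CPM in late DMSO libraries. All 6 late libraries lay above all 7 early ones, a difference between scenarios that was not tested, and rotenone and DMSO overlapped in each.

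Of 28 genes of the integrated and mitochondrial stress response none was called, with medians of -0.04 early and 0.01 late, which ran from -0.05 (without T6) to -0.0146 (without T11) early and from -0.009 (without T78) to 0.0256 (without T74) late. DDIT3, a transcription factor induced by that response, had 95% intervals of -0.51 to 0.40 early and -0.45 to 0.52 late, and of -0.169 to 0.0875 early and -0.0965 to 0.174 late with only the 4 groups fitted. The mitochondrial chaperonin HSPD1 had intervals of -0.26 to 0.18 early and -0.27 to 0.19 late. Of 24 genes of oxidative stress and glutathione, 21 were lower in early rotenone (median -0.07) and 16 in late rotenone (-0.02), with none called. Without T11 the early count was 13 of 24. The medians ran from -0.116 (without T13) to -0.0136 (without T11) early and from -0.0517 (without T72) to 0.003 (without T74) late. GCLC, the catalytic subunit of glutathione synthesis, had 51.5, 49.2, 47.4 and 51.4 CPM in early rotenone libraries, against 50.6, 50.4 and 54.6 CPM in early DMSO libraries. The log2 fold changes of GCLC were -0.06 early (95% interval -0.215 to 0.10) and -0.06 late (-0.23 to 0.11). SOD2, the mitochondrial superoxide dismutase, had -0.06 in each scenario. Its early groups overlapped. In the late scenario SOD2 had 69.5, 68.8 and 65.8 CPM in rotenone libraries, all below the 71.2, 71.2 and 70 CPM in DMSO libraries. Such a late lower side without overlap was found for 5.2% of genes with at least 1 CPM.

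Dopamine neuron and vessel genes were looked at because of the known toxicity of rotenone and the subject of the study. TH, which makes the dopamine precursor L-DOPA, had 5.76, 6.94, 5.70 and 6.79 CPM in early rotenone libraries, against 6.68, 6.51 and 5.26 CPM in early DMSO libraries. In the late scenario TH had 8.35, 8.11 and 7.19 CPM in rotenone libraries, against 6.44, 7.41 and 7.31 CPM in DMSO libraries. Groups overlapped in both, with 95% intervals of the log2 fold change of -0.33 to 0.38 early and -0.21 to 0.53 late. The 15 genes of the dopamine and Parkinson list had medians of -0.01 early and -0.06 late, and none was called. Leaving out single libraries gave -0.0871 (without T10) to 0.0406 (without T9) early and -0.0611 (without T72) to 0.004 (without T77) late. PINK1, a kinase that marks damaged mitochondria for removal, had log2 fold changes of 0.01 early and -0.06 late. The vascular endothelial growth factor receptor kdrl had 35.0, 37.9, 38.4 and 32.3 CPM in early rotenone libraries, against 36.3, 34.1 and 33.9 CPM in early DMSO libraries. Its log2 fold change was 0.05 early (95% interval -0.185 to 0.28) and -0.05 late (-0.30 to 0.19), and the medians of 35 vessel genes were -0.01 and 0.01, which ran from -0.0346 (without T12) to 0.0161 (without T11) early and from -0.0317 (without T77) to 0.0569 (without T76) late.

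Among the lists of tissue genes, exocrine pancreas early and lens crystallins late had the medians farthest from 0, and no member of either was called. The summed level of 20 pancreas genes, which encode digestive enzymes, was 1566, 1424, 1348 and 2843 CPM in early rotenone libraries, against 1712, 1793 and 2652 CPM in early DMSO libraries. T10 and T11 were the high libraries, 1 in each group. The median log2 fold change was -0.15 with all libraries, -0.53 without T10 and 0.02 without T11. The summed level of 50 lens crystallin genes was 11987, 12265 and 10888 CPM in late rotenone libraries, against 12072, 9493 and 4691 CPM in late DMSO libraries, where T78 was the low one. The median was 0.39, with 45 of 50 higher in rotenone, and it was 0.10 without T78 and 0.668 without T76. In the early scenario the crystallin median was -0.08, with -0.163 (without T13) to 0.06 (without T11). Of 21 neuron and synapse genes, 16 were lower in early rotenone (median -0.059) and 9 in late rotenone (0.006). Without T11 the early count was 17 of 21. Their medians ran from -0.104 (without T9) to -0.0382 (without T8) early and from -0.005 (without T76) to 0.0341 (without T74) late. Of the 29 lists, 25 had a median within 0.1 of 0 early and 27 late. No list held a called gene, which follows from the 0 calls over all genes and says nothing more about the lists.

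**Figure D2:**
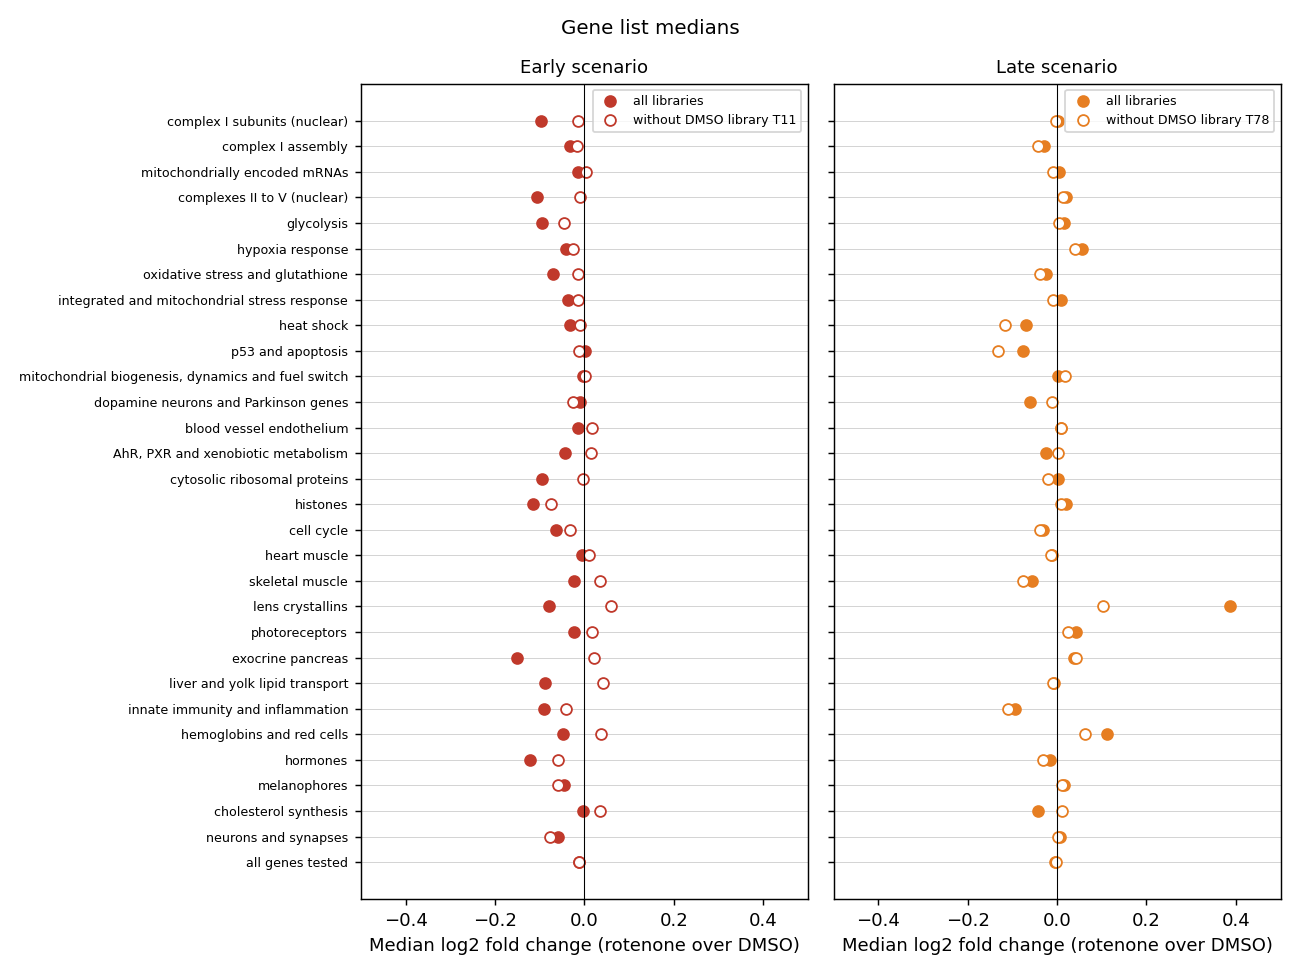
Median log2 fold change (rotenone over DMSO) of 29 gene lists and of all genes tested in the early (left) and late (right) scenario, with all libraries (filled) and without DMSO library T11 or T78 (open). Early medians of respiratory chain, ribosomal and pancreas genes lie nearer 0 without T11, and the late lens crystallin median is 0.39 with all libraries and 0.10 without T78 (0.668 without T76, not drawn).

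**Figure D3:**
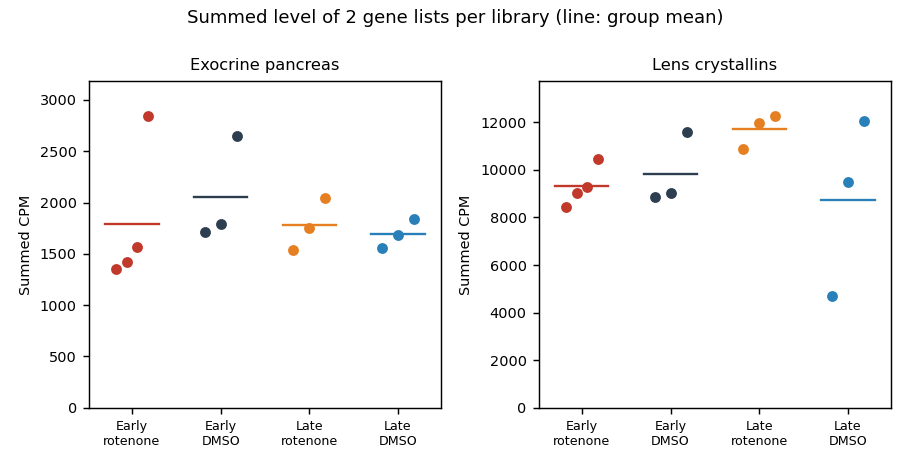
Summed CPM per library of 20 exocrine pancreas genes (left) and 50 lens crystallin genes (right); points are libraries and lines group means. The high pancreas libraries are T10 in early rotenone and T11 in early DMSO, and the low lens library is T78 in late DMSO.

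Genes that change between 36 and 48 hpf in late DMSO embryos were also looked at, from libraries that no comparison above used. The same fit called 8202 genes for that step. The 200 with the largest rise had median log2 fold changes with rotenone of 0.00 early and 0.04 late, and the 200 with the largest fall had -0.02 and -0.03, beside -0.01 and 0.00 over all genes tested.

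The 7 genes that DESeq2 called in the early scenario were all high in library T8. The gene si:ch211-158m24.12 had 1.01, 10.7, 1.95 and 1.55 CPM in early rotenone libraries T6, T8, T9 and T10, against 0.567, 0.487 and 0.298 CPM in early DMSO libraries. All 4 rotenone libraries lay above DMSO (edgeR log2 fold change 2.99, SE 0.60, adjusted p = 0.27, DESeq2 adjusted p = 0.0037). Without T8 its log2 fold change was 1.70. In the late scenario the same gene had 0.244, 0.531 and 0.593 CPM in rotenone libraries, against 1.71, 0.528 and 0.808 CPM in DMSO libraries. ENSDARG00000081369 had 18.4 CPM in T8 and 0.668 to 0.966 CPM in the other early rotenone libraries, against 0.157 to 0.813 CPM in early DMSO libraries. Its log2 fold change was 3.09, and 0.58 without T8. The same holds for si:ch211-276i12.12 (3.72, and 0.81 without T8), si:dkey-162b3.5 (2.84 and 0.31), si:ch211-195b11.4 (1.82 and 0.47), ENSDARG00000116939 (3.24 and 1.17) and ENSDARG00000116881 (5.33 and 2.64). In edgeR, 6 genes were called without T6, 3 without T10 and 0 without T8. The symbol table names the 7 only by clone or ID, and 15 of the 25 genes with the lowest early p belonged to the T8 set. That set was defined by high T8 values, which also enter the early p, so this overlap is no separate evidence. T8 also had the lowest depth of the 13 libraries, and its part in these values beyond the comparison without it was not tested.

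**Figure D4:**
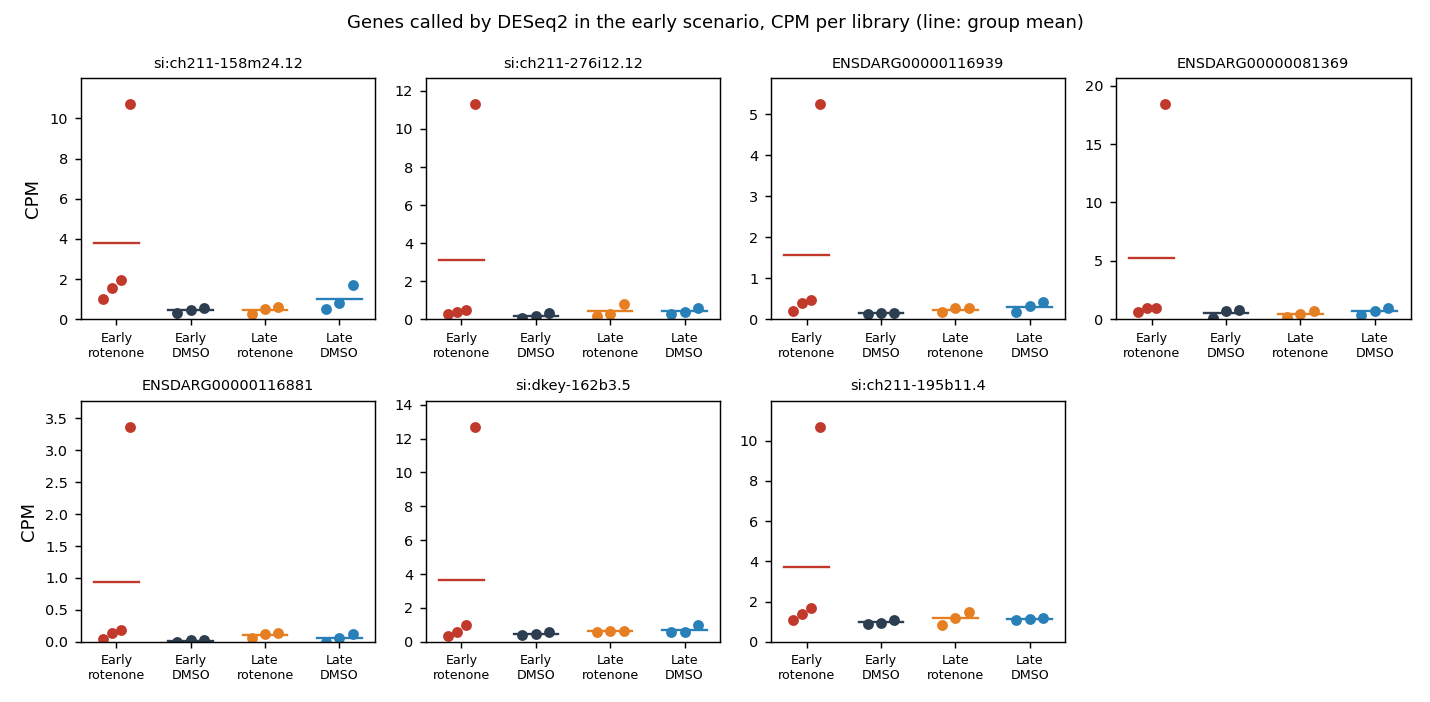
CPM per library of the 7 genes called by DESeq2 in the early scenario; points are libraries and lines group means. The single high early rotenone point in each panel is library T8, and the other 12 libraries lie at or under 1.95 CPM.

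Of the other genes with the lowest p in the early scenario, those that have a symbol, reach 1 CPM and show no overlap between groups are given as values, since all had an adjusted p of 1. Over the 19496 genes with at least 1 CPM, all rotenone libraries lay above all DMSO libraries for 280 (1.44%) and below them for 702 (3.6%). USP30 (ENSDARG00000056842), a deubiquitinase of the outer mitochondrial membrane that opposes the removal of mitochondria, had 2.34, 2.09, 2.41 and 2.01 CPM in early rotenone libraries, against 1.73, 1.49 and 1.55 CPM in early DMSO libraries (log2 fold change 0.49, SE 0.16). Its late log2 fold change was -0.15 (SE 0.16). The nuclease partner slx4ip (0.49, SE 0.15), the cytochrome P450 gene cyp2aa3 (0.55, SE 0.17) and the cell adhesion gene pcdh1g14 (0.79, SE 0.26) had higher values in rotenone. For cyp2aa3 library T9 had 8.72 CPM and the other 3 rotenone libraries 4.52 to 4.71, and the log2 fold change was 0.25 without T9. For slx4ip the highest rotenone library was T8 (3.24 CPM), and the log2 fold change was 0.36 without T8. For pcdh1g14 the lowest DMSO library was T11 (0.84 CPM), and the log2 fold change was 0.618 without T11. The DNA helicase DDX11 (-0.41, SE 0.13), the ubiquitin peptidase zufsp (-0.35, SE 0.12), the carrier SLC10A3 (-0.33, SE 0.11), the neuropeptide precursor vgf (-0.21, SE 0.07) and the interferon-induced gene ifi27.4 (-0.79, SE 0.28) had lower values. For ifi27.4 the DMSO library T11 had 1.76 CPM and the other 2 had 0.976 and 1.08, and the log2 fold change was -0.50 without T11.

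In the late scenario all rotenone libraries lay above all DMSO libraries for 919 (4.71%) and below them for 1014 (5.2%) of the 19496 genes. The lowest p on the higher side belonged to snapc2, a subunit of the complex that starts small nuclear RNA transcription, with 4.44, 4.14 and 4.63 CPM in late rotenone libraries, against 3.67, 3.41 and 3.25 CPM in late DMSO libraries (log2 fold change 0.35, SE 0.12). Next by p were the receptor ROR1 (0.29, SE 0.11) and PORCN (ENSDARG00000052455), the acyltransferase that Wnt ligands need (0.24, SE 0.09). The liver lipid gene tm6sf2b had 0.39 (SE 0.15) and si:dkeyp-117b11.2 had 0.30 (SE 0.12). On the lower side stood faap100 of the Fanconi anemia core complex (-0.42, SE 0.13), the arginine methyltransferase PRMT6 (-0.33, SE 0.10), the enolase relative ENO4 (-0.57, SE 0.19) and zgc:113372 (-0.33, SE 0.12). The import receptor chchd4b, whose human relative brings proteins into the space between the mitochondrial membranes, had 3.96, 3.34 and 4.33 CPM in late rotenone libraries, against 5.65, 5.88 and 5.62 CPM in late DMSO libraries (-0.56, SE 0.20). Its early groups overlapped (0.23, SE 0.19). All 10 had an adjusted p of 1 in edgeR.

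The second question was whether both scenarios shared changes, and the late comparison has its own controls. Across the 19496 genes with at least 1 CPM the early and late log2 fold changes had a Pearson correlation of -0.06 and a Spearman correlation of -0.08, a description across genes that share libraries and are not independent. Of these genes 151 had an unadjusted p under 0.05 early and 87 late. The lists shared 3 genes, 1.99% of the early and 3.45% of the late list, and 0 of the 3 had the same direction. Over all 24246 genes tested the Pearson correlation was 0.01 and the Spearman correlation -0.06. There the lists of 306 early and 223 late genes shared 9 (2.94% and 4.04%), of which 5 had the same direction. Among the 19496 genes, groups did not overlap in the same direction in both scenarios for 38 (0.195%), of which 9 were higher and 29 lower in rotenone. They made up 3.87% of the 982 early and 1.97% of the 1933 late genes without overlap. A further 66 genes lay on opposite sides in the scenarios, more than the 38 on the same side. The 38 are therefore no measure of a shared response, and those named below are given as values only.

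Of the 38 genes, the homeobox gene NKX6-3 had 1.15, 0.809, 1.16 and 1.13 CPM in early rotenone libraries, against 1.23, 1.32 and 1.44 CPM in early DMSO libraries, and 1.15, 1.1 and 1.03 CPM in late rotenone libraries, against 1.55, 1.62 and 1.37 CPM in late DMSO libraries. Its common log2 fold change was -0.38 (95% interval -0.66 to -0.11, adjusted p = 1). The epidermal transcription factor grhl3 (-0.19), the purine enzyme PNP (ENSDARG00000078619, -0.19), the sialic acid enzyme GNE (-0.10) and zufsp (-0.26) were the other genes with the lowest p on the lower side. On the higher side these were RABGGTB, a subunit of the enzyme that adds lipid to Rab proteins (0.11), the calcium channel ORAI1 (ENSDARG00000004154, 0.26), the cilia gene INTU (0.13), the precursor of a neuronal microRNA mir124-5 (0.26) and SLC35G1 (0.30). ENSDARG00000115988, which has no symbol, was also lower without overlap in both scenarios, and its values are given with the alternative fits. The gene tdgf1, a co-receptor of Nodal ligands in the early embryo, fell outside the naming rule, with under 1 CPM, and was picked after its values were seen. It had 0.718, 0.724, 0.772 and 0.915 CPM in early rotenone libraries, against 0.283, 0.467 and 0.596 CPM in early DMSO libraries, and 0.806, 0.973 and 0.821 CPM in late rotenone libraries, against 0.589, 0.641 and 0.577 CPM in late DMSO libraries. All 7 rotenone libraries lay above the DMSO libraries of their scenario, at a common log2 fold change of 0.645 (95% interval 0.334 to 0.955) with an adjusted p of 1.

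**Figure D5:**
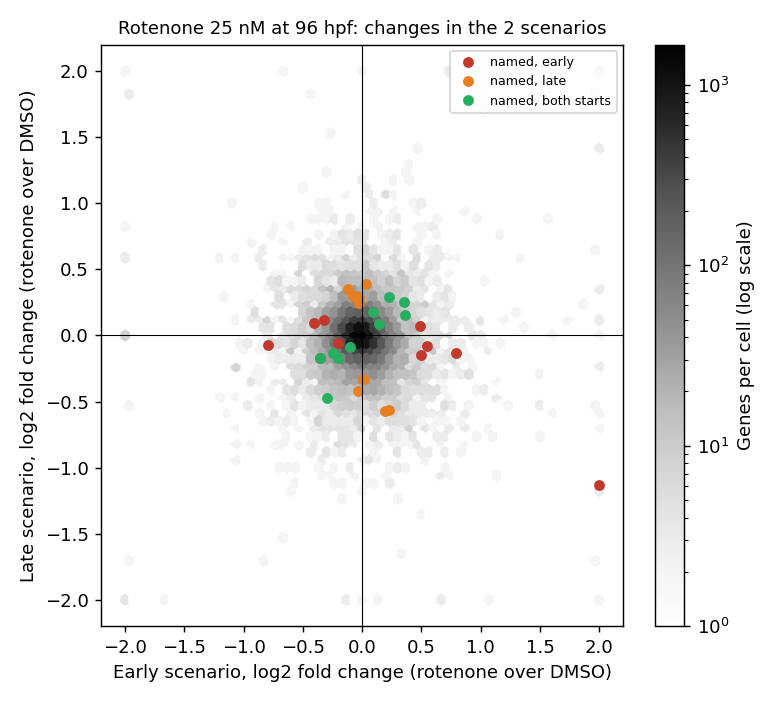
Log2 fold change (rotenone over DMSO) in the early (x axis) and late (y axis) scenario for all 24246 genes tested, drawn as the number of genes per cell and limited to values between -2 and 2; coloured points are the genes named for the early, late or common comparison. The cloud is centred on 0 on both axes without a slope, and si:ch211-158m24.12 sits at the right edge with a late value of -1.13. The Pearson correlation was 0.01 over all genes tested and -0.06 for genes with at least 1 CPM.

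The test of the difference itself, early minus late change, called 0 of 24246 genes (0%) in edgeR and 0 in limma voom, with 316 at an unadjusted p under 0.05 in edgeR, and DESeq2 called 1, the T8 gene si:ch211-158m24.12. Intervals of the difference lay within 1 on the log2 scale for 89.9% of the 19496 genes and within 0.5 for 40.8%, so that differences between the scenarios were bounded less closely than the changes themselves. USP30 had a difference of 0.64 (95% interval 0.19 to 1.09) and chchd4b of 0.79 (0.225 to 1.36), both with an adjusted p of 1. Each was named through its low p in a single scenario, which enters this difference, so that intervals without 0 are no separate evidence.

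At other times and at the higher concentration the same fit called 21 genes with late rotenone 25 nM at 36 hpf, 0 at 48 hpf and 1 with 50 nM at 96 hpf. The unadjusted p was under 0.05 for 2008, 1792 and 853 genes, in that order. The 48 hpf comparison had only T54 and T55 as DMSO libraries. Its rotenone library T49 had a TMM factor of 0.7983 and a median deviation from its group of 0.357 on the log2 scale. The 50 nM comparison shares its DMSO libraries with the late 25 nM one. Log2 fold changes of LDHA were 0.21 at 36 hpf, 0.07 at 48 hpf and -0.16 at 50 nM, beside -0.03 with 25 nM at 96 hpf in the late scenario. Those of EGLN3 were -0.40, 0.47 and -0.79, beside 0.06, and those of chchd4b 0.22, 0.25 and -0.26, beside -0.56. None of these genes was called in any of these comparisons. Their lowest adjusted p in edgeR was 0.446 (LDHA at 36 hpf), and a course over time or concentration was not tested.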

How the data were processed

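RNA of pooled zebrafish embryos was sequenced by the authors with a stranded library kit. Per the labels, reads were aligned with HISAT2 2.1.0 to GRCz11 and counted with featureCounts 2.0.3; the strand setting and the annotation release are not given in the sources used here. The deposited table holds whole-number counts per gene without normalization, and the deposited sample table gives the reads of each library. Gene symbols came from a table of gene IDs that matched 29201 of 32520 genes. All 55 libraries the study kept (18 groups) were fitted with edgeR 4.0.16 (quasi-likelihood test, TMM scaling, filterByExpr, Benjamini-Hochberg adjustment over 24246 genes, threshold 0.05) in R 4.3.3; T14 and T51 were left out. CPM values use TMM-scaled library sizes. DESeq2 1.42.0, limma 3.58.1 (voom), other scalings, filters, library sets and each library left out in turn were alternatives. The edgeR fit was also run on simulated counts drawn with the spread estimated by this same fit. Such counts cannot show how single deviating libraries affect it. Nothing says that pools came from separate spawnings, so p-values rest on the spread between pools. In the main fit that spread was estimated over all 55 libraries, not only the 13 compared. The early SE of NDUFS7 was 0.223 in that fit and 0.0574 with only the 4 groups fitted.

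The libraries, gene lists and named genes were chosen with earlier results of these data known. In each of the early, late and common comparisons, named genes were the first 5 on either side when ordered by p, among genes that have a symbol, reach 1 CPM and show no overlap between groups, the genes DESeq2 called, the lowest p of each list and a few index genes. NDUFS7, NDUFV1, LDHA, PINK1, SOD2, DDIT3 and HSPD1 were added by role. From the red cell list, HBP1 and HBEGF genes caught by a name pattern were removed after values were seen. Symbols of cyp1a and hmox1a and of 4 of 10 tissue markers were not matched. Entries of the gene lists were also left without a match, with 24 for glycolysis, 18 for photoreceptors, 15 for hypoxia, 14 for vessels and 10 for oxidative stress. Neurons and synapses had 14 such entries, exocrine pancreas 10, and dopamine and Parkinson genes 8. These lists, and others with unmatched entries, are therefore partial. Some results are not reported here.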

Additional observations from a re-analysis of the deposited data

Results flagged for a closer look

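Values of single early rotenone libraries that stood apart from the other 3 were looked for in the named genes, list sums and mitochondrial share, which gave 18 such values in 134 groups of 4. Chance flags about 1 in 20 groups, but this rate is no measure here, because the 7 DESeq2 genes were named through their high T8 values and list sums share members with named genes. Library T8 was the high one for si:ch211-158m24.12 (10.7 CPM), si:ch211-276i12.12 (11.3 CPM), ENSDARG00000116939 (5.24 CPM), ENSDARG00000081369 (18.4 CPM), ENSDARG00000116881 (3.37 CPM), si:dkey-162b3.5 (12.7 CPM) and si:ch211-195b11.4 (10.7 CPM), and the low one for NKX6-3 (0.809 CPM) and the complex I assembly gene NUBPL (5.50 CPM). Library T10 was the high one for the pancreas genes ctrb.1 (340 CPM) and PLA2G1B (10.9 CPM), for the summed exocrine pancreas list (2843 CPM), for the summed cholesterol synthesis list (841.2 CPM) and for the apelin receptor aplnra (17.0 CPM), and the low one for the cyclin CCNB2 (2.11 CPM). Library T9 was the high one for cyp2aa3 (8.72 CPM) and the pituitary hormone smtlb (0.295 CPM) and the low one for ENO4 (0.977 CPM).

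All early rotenone libraries lay above and all late rotenone libraries below their DMSO libraries for pcdh1g14 (early minus late log2 fold change 0.92) and for the endothelial transcription factor SOX17 (1.63), and the test of the difference gave an adjusted p of 1 for both in edgeR. Over the 19496 genes with at least 1 CPM, 66 lay on opposite sides. SOX17 is not among these, with 0.171 to 0.726 CPM over the 13 libraries. For pcdh1g14 the late groups barely parted, at 1.75 to 1.78 CPM in rotenone and 1.79 to 2.04 CPM in DMSO libraries.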

How the results depend on the processing

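Of 25 alternatives, 4 gave any early call: DESeq2 called 7 genes, a fit of only the 4 groups called 1 (ENSDARG00000115988), and leaving out single libraries gave 0 to 6 (6 without T6 and 3 without T10). Of the 8 genes called in any of these, 7 belonged to the T8 set, whose defining high T8 values also enter the early tests. No alternative called a late or a common gene, and for early minus late DESeq2 alone called 1. ENSDARG00000115988 had 10.7, 10.3, 10.9 and 8.20 CPM in early rotenone libraries, against 24.4, 20.9 and 45.0 CPM in early DMSO libraries, and its log2 fold change was -1.55 in that fit, -1.57 with all groups and -1.16 without T11. Leaving out T8 and T11 together, chosen after seeing the data, gave 0 calls in every comparison. RLE scaling moved the median of all genes to -0.00736 early and 0.00541 late. No paired analysis was possible because rotenone and DMSO libraries share no replicate number. Depth limits genes under 1 CPM most.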
